A study of Mus musculus with 36 samples.

Results

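The chromatin response measured here is that of mouse cortical neurons kept for 10 h in BDNF, compared with neurons kept silent. ATAC-seq, in which a transposase cuts and tags open DNA so that reads pile up over accessible regions, gave 18 of the 36 libraries of the series. The comparison takes 8 of those 18: 2 libraries of BDNF at 10 h, named A and B by column order, and 6 controls, 2 for each of 3 control times. All cells came from E15 embryos of CD-1 mice and were grown for 7 days in vitro, and every culture was silenced for 2 h beforehand by 1 µM TTX (which blocks sodium channels) together with 100 µM AP-5 (which blocks NMDA receptors). The BDNF cells then received 10 ng/ml BDNF for 10 h, and the controls stayed in AP-5 and TTX for 3, 8 or 12 h in all (labelled control 1 h, 6 h and 10 h). The labels name AP-5 and TTX for the 2 h before BDNF and do not state whether they stayed on during it. If they did not, exposure to BDNF and the end of silencing cannot be told apart. RNA-seq from the same groups (2 and 6 libraries) gave the transcripts of nearby genes. Direct comparisons with BDNF at 1 h and with KCl at 10 h, given further below, used 2 more ATAC libraries each. After the same silencing those cultures received 10 ng/ml BDNF for 1 h or 55 mM added KCl for 10 h. Tissue of all embryos of a dissection was dissociated together, the cultures are bulk samples, and in them fewer cells of a type and less RNA or open chromatin per cell cannot be told apart. The study calls its replicates biological, but whether those of a group came from separate dissections or cultures is not given in the sources used here, so p-values measure the spread between these libraries. The table held 58177 peaks, of which 56383 had a mean of at least 10 reads over the 18 libraries and were tested, all of them in every comparison below.

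BDNF binds the receptor kinase TrkB, which signals through the Ras and MAP kinase cascade, phospholipase C and PI3 kinase. The early products of that signal include Fos and Jun proteins, which pair to form AP-1, a factor that binds TGANTCA (N for any base) in enhancers and is known for opening chromatin there. Enhancers lie mostly between genes or in introns, promoters lie at transcription start sites and are open in most cells, and closed chromatin is covered by nucleosomes.

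The 10 windows below show the DNA that the results turn on, each the central 200 bp of a peak (mm10, GRCm38 reference genome, plus strand, 5′ to 3′) with every TGANTCA in capitals. The site matches both strands at once. The first 5 are peaks that opened and hold the site, near Iglon5, Edem1, Spred2, Gal and Dusp6. The Inhba and Crh windows opened without holding it, and the last 3 closed.
Iglon5 (chr7:43481219-43481418): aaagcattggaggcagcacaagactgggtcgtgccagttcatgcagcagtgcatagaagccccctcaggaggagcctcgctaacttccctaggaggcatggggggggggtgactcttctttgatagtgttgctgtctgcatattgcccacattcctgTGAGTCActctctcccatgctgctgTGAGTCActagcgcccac
Edem1 (chr6:109408721-109408920): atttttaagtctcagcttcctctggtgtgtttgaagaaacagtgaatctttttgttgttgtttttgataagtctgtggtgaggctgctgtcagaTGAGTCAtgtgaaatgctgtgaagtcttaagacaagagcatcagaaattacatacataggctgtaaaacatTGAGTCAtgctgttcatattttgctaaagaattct
Spred2 (chr11:19979369-19979568): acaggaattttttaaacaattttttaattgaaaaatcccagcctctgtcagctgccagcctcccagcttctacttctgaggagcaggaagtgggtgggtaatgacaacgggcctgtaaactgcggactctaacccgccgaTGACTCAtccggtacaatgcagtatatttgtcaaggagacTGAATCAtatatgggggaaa
Gal (chr19:3419395-3419594): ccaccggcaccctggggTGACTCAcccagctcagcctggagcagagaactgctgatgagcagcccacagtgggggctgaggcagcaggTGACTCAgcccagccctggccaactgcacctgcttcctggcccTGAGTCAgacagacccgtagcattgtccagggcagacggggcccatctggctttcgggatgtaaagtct
Dusp6 (chr10:99250852-99251051): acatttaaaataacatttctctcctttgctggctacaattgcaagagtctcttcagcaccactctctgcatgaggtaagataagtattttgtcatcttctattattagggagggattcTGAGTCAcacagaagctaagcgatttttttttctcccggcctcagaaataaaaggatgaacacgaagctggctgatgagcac
Inhba (chr13:15777842-15778041): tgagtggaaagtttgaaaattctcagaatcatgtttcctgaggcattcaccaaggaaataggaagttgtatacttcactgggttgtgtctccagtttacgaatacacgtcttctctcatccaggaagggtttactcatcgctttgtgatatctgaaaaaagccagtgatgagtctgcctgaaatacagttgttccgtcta
Crh (chr3:19758555-19758754): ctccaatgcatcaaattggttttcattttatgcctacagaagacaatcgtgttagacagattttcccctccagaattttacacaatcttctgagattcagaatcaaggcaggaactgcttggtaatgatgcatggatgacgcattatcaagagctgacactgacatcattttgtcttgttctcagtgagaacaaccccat
Lmx1a (chr1:167941945-167942144): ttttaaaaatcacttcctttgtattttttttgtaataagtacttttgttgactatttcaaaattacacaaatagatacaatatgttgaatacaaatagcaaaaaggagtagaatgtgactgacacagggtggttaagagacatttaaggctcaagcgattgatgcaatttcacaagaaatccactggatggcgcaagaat
Tox2 (chr2:163297297-163297496): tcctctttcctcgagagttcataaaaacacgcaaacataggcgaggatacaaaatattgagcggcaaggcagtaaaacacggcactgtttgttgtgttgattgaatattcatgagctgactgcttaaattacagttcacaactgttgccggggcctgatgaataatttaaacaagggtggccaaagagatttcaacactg
Iqgap2 (chr13:95872052-95872251): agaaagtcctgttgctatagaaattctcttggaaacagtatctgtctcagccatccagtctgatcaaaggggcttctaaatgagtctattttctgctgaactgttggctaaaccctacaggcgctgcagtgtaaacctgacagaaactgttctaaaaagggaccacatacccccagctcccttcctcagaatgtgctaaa

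At 10 h of BDNF, 4265 peaks were gained, that is higher than in controls, which is 7.56% of those tested, and 1012 were closing, or 1.79% (edgeR quasi-likelihood test, two-sided, adjusted p below 0.1). Gained peaks thus made up 80.8% of the calls. Scaled counts are reads corrected for depth by a LOESS curve. The median gained peak went from 9.52 scaled counts in controls to 34.0 with BDNF and had a log2 fold change of 1.65 (5th to 95th percentile 0.64 to 2.91), and 3636 rose at least 2-fold, 1318 at least 4-fold and 176 at least 8-fold. The median closing peak went from 29.3 to 11.2 with a log2 fold change of -1.38, and 739 fell at least 2-fold and 134 at least 4-fold. The median of all tested peaks was -0.03, so the scaling left the whole table centred. Both BDNF libraries lay above all 6 controls in 6217 peaks (11.0%) and below all 6 in 3977 (7.05%). Among gained peaks 3855 (90.4%) were separated in this way, and among closing peaks 839 (82.9%).

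Reads in peaks were 2.02 and 2.78 M in BDNF libraries A and B and 2.43 to 4.24 M in controls, and the lowest count in the table was 1, which may stand for 0. In a principal component analysis of the 5000 most variable peaks of these 8 libraries, the first component held 52.4% of the variance and set the BDNF libraries (-101 and -82.0) against the controls (20.2 to 40.3). The second component held 10.6% and set control 10 h library A apart at -59.9. Without that library, 4465 peaks were gained and 1073 closing. A filter on the mean over all 18 libraries admits peaks that pass only because stimulated libraries are high. There were 5084 tested peaks with a mean under 10 reads in the 6 controls, and 2312 of them (45.5%) were gained and 12 closing. Such a peak had to be higher somewhere to be tested at all. Among the other 51299 peaks, 1953 (3.81%) were gained and 1000 (1.95%) closing, so that gained peaks made up 66.1% of the calls.

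The 10 largest separated gains started from low counts in controls, which a ranking by fold change and the filter over all 18 libraries both favour. Controls are given as the lowest, the median and the highest of 6, and a gene is the one with the nearest protein-coding start, whether or not the peak acts on it. Distances run to the nearest start of a protein-coding transcript, and such a start can lie inside its gene. The Iglon5, Mllt3 and Pcdh15 peaks, given below as upstream of such a start, lie within those genes. The largest was at chr7:43481106-43481532 (intronic, 3.09 kb upstream of Iglon5, a neuronal cell adhesion molecule of the IgLON family), which held 82.3 and 64.7 scaled counts with BDNF against 1.66, 3.36 and 9.04 in controls (log2 fold change 4.1, SE 0.37, adjusted p = 2.19e-17). The window printed above holds its 2 AP-1 sites. A peak at chr4:87838818-87839147 (exonic, 32.7 kb upstream of Mllt3, part of a transcription elongation complex) held 34.5 and 20.0 scaled counts with BDNF against 0.886, 1.06 and 3.01 in controls (log2 fold change 4.08, SE 0.56, adjusted p = 6.42e-09). A peak at chr6:109408698-109408945 (intergenic, 580.1 kb downstream of Edem1, which acts in the disposal of misfolded glycoproteins) held 58.9 and 26.8 scaled counts with BDNF against 0.902, 1.65 and 9.15 in controls (log2 fold change 4.04, SE 0.51, adjusted p = 2.54e-10). In that peak control 10 h library A was the highest control and the other 5 were between 0.902 and 2.11. No control of the Mllt3 peak held more than 2 reads and none of the Stk17b peak more than 3, so the size of those folds rests on counts at the floor. A peak at chr14:120997726-120998064 (intergenic, 37.3 kb upstream of Farp1, a guanine nucleotide exchange factor of dendrites) held 34.0 and 33.8 scaled counts with BDNF against 1.02, 1.40 and 3.62 in controls (log2 fold change 3.98, SE 0.52, adjusted p = 5.85e-10). A peak at chr4:110528709-110529010 (intronic, 131 kb downstream of Agbl4, an enzyme that trims glutamates from tubulin) held 69.5 and 42.9 scaled counts with BDNF against 1.02, 2.01 and 8.86 in controls (log2 fold change 3.93, SE 0.43, adjusted p = 5.73e-13). In both, the lower BDNF library was well above the highest control. The Farp1 peak held 1 read, the lowest value of the table, in 4 of 6 controls and at most 4 in the others, so that fold too rests on counts at the floor.

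The next 5 were smaller by little. They lay near Stk17b, a serine/threonine kinase (chr1:53761783-53762009, exonic, 23.3 kb downstream), Asb7, an adaptor of a ubiquitin ligase (chr7:66593659-66593937, intergenic, 95.8 kb downstream), Ythdf3, a reader of methylated adenosine in RNA (chr3:16451630-16451802, intergenic, 268 kb downstream), Inhba, which encodes the activin A subunit (chr13:15777717-15778167, intergenic, 234 kb upstream), and Pcdh15, a protocadherin (chr10:73515747-73516100, intronic, 306 kb upstream). Their log2 fold changes were 3.92, 3.91, 3.91, 3.89 and 3.88, in that order. The Inhba peak held no AP-1 site in its window and held 67.2 and 65.6 scaled counts with BDNF against 2.01, 4.41 and 7.31 in controls (log2 fold change 3.89, SE 0.37, adjusted p = 3.21e-16). The Pcdh15 peak held 2 sites and held 45.6 and 45.6 scaled counts with BDNF against 0.84, 2.94 and 5.98 in controls (log2 fold change 3.88, SE 0.43, adjusted p = 1.09e-12). Across these 10 gains, 8 had at least 1 AP-1 site, and BDNF and control libraries did not overlap, which the rule of choice required. Of the genes nearest to them, Stk17b, Agbl4, Inhba and Iglon5 were lower in RNA, Farp1 was higher, and Edem1, Asb7, Mllt3, Ythdf3 and Pcdh15 did not pass the test. Stk17b RNA was 43.0 and 61.3 normalised RNA counts with BDNF against 60.7 to 112 in controls (log2 difference -0.69, SE 0.22, adjusted p = 0.0186). Iglon5 RNA was 717 and 518 normalised RNA counts with BDNF against 651 to 815 in controls (log2 difference -0.24, SE 0.09, adjusted p = 0.0489). Farp1 RNA was 2188 and 1968 normalised RNA counts with BDNF against 1700.3 to 1915 in controls (log2 difference 0.19, SE 0.08, adjusted p = 0.0697), and these RNA tests are limma on log2(value + 1).

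**Figure D1:**
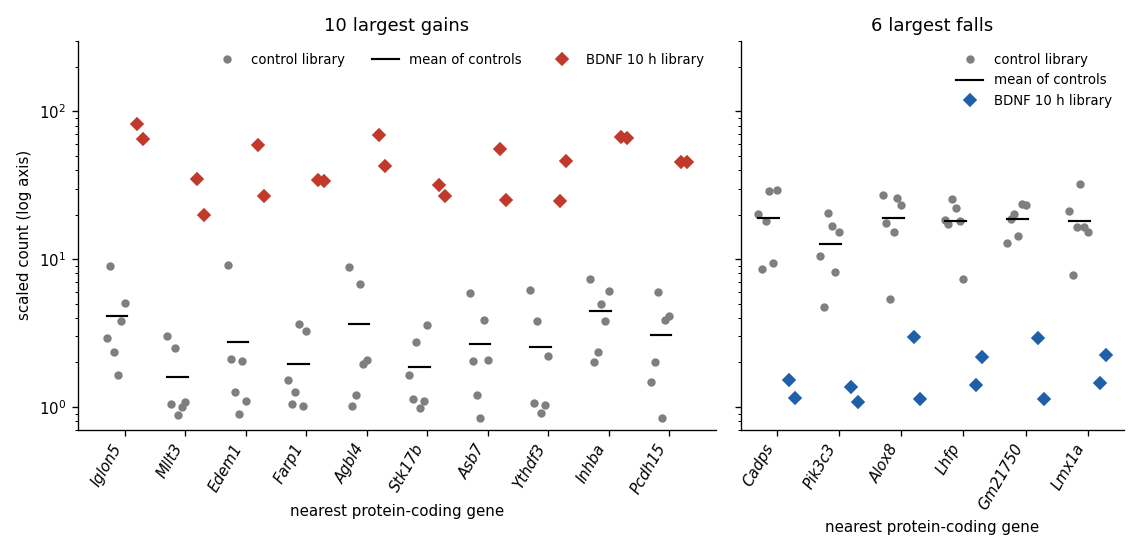
Scaled counts (log axis) of the 10 largest separated gains (left) and the 6 largest separated falls (right), named by the nearest protein-coding gene. Circles are the 6 control libraries, bars their mean and diamonds the 2 BDNF 10 h libraries. The BDNF libraries sit above every control in the left panel and below every control in the right panel, as the rule of choice requires, with the falls ending near 1 read.

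Gained peaks lay away from promoters, and closing peaks were spread much like the table. A promoter peak here overlaps the window from 1000 bp before to 100 bp after a start site in GENCODE M21. A start site may lie inside a gene, as at the Aqp4, Klf8 and Synj2 promoter peaks given below. Promoters took 7.76% of the gained peaks (exact binomial 95% interval 6.98 to 8.61), 24.6% of the closing peaks (22.0 to 27.4) and 27.1% of all tested peaks. Introns took 40.6% of the gained, 35.5% of the closing and 33.2% of all peaks, and intergenic DNA took 46.9%, 35.8% and 35.0%. These intervals cover counting error of the lists only. Of tested peaks within 1 kb of a protein-coding start, 1.76% were gained, and the share rose with distance to 7.06% at 1 to 10 kb, 8.29% at 10 to 50 kb, 9.10% at 50 to 100 kb, 11.0% at 100 to 500 kb and 14.4% beyond 500 kb. The share of closing peaks stayed between 1.66% and 2.09% in those bins. Gained peaks were narrower (median 319 bp) and poorer in G and C (43.0%) than closing peaks (354 bp, 50.3%) or all peaks (375 bp, 49.0%), and their median distance to a start was 67.8 kb against 31.5 and 28.4 kb. The promoter share of closing peaks depended on scaling. It was 50.2% with TMM and 55.9% with DESeq2 size factors, so no statement on where closing peaks lie holds under every scaling, whereas the promoter share of gained peaks fell to 5.30% and 4.77%. In peaks with a control mean of at least 10 reads, 12.7% of the gained peaks were in promoters. Distance, width and GC content were not recomputed for those peaks. Their values above therefore include peaks that were tested only because stimulated libraries were high.

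**Figure D2:**
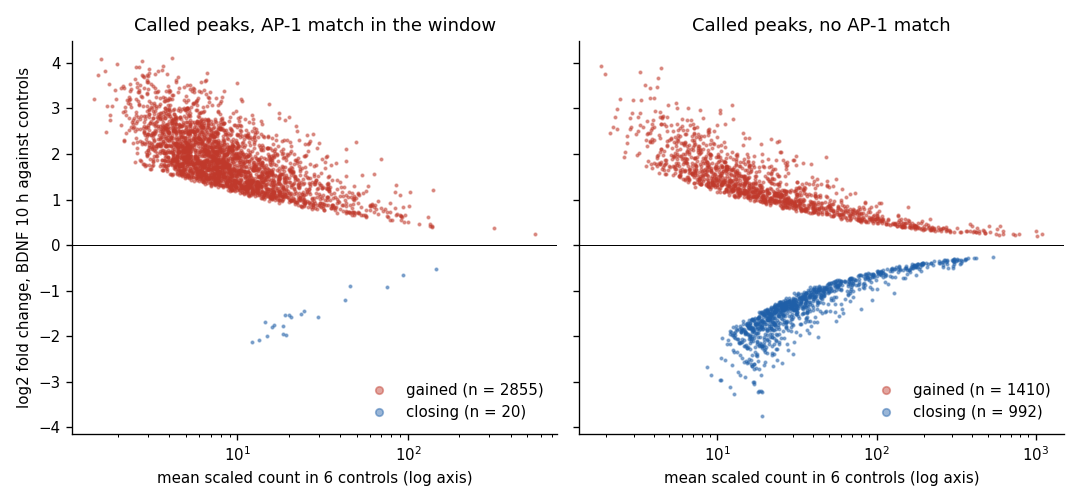
Log2 fold change of every called peak against its mean scaled count in the 6 controls (log axis), split by whether the central 200 bp held TGANTCA (left) or not (right). The left panel holds 2855 gained and 20 closing peaks, the right panel 1410 and 992, and large gains start from low control counts.

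AP-1 sites were more frequent in gained peaks than in the other sets. TGANTCA was found within the central 200 bp of 2855 gained peaks (66.9%), of 20 closing peaks (1.98%), of 8.68% of the peaks not called and of 13.0% of all tested peaks. Over whole peaks the shares were 78.3%, 4.94%, 15.0% and 19.6%. The share that was gained rose with the number of sites: 2.87% of 49072 peaks with 0 sites, 33.5% of 6210 with 1, 68.7% of 963 with 2 and 81.2% of 138 with 3 or more. Peaks with sites also had lower control levels, with a median of 14.3 scaled counts at 1 site against 31.0 at 0. In the peaks whose controls reached a mean of 10 reads the shares for 0, 1, 2 and 3 or more sites were 2.08%, 20.2%, 49.7% and 77.8%, and 50.0% of the gained, 2.00% of the closing and 6.81% of the uncalled peaks held a site. The share also differed by the middle base: 45.6% of peaks with a C or G in the middle were gained, against 23.8% of those with only A or T there. Of peaks with no site but a sequence 1 letter off, 4.59% were gained. Among peaks with a C or G site, 53.5% were gained where the nearest site lay within 10 bp of the middle. Where it lay 50 to 100 bp away, 35.8% were gained. Median control levels in these sets were 8.73 and 14.7 scaled counts, in that order. They were 11.4 for peaks with a C or G in the middle and 17.2 for those with only A or T. Site frequency also rose with the size of the gain, from 25.6% of the 629 gained peaks under 2-fold to 67.7% at 2- to 4-fold, 84.7% at 4- to 8-fold and 89.8% of the 176 peaks over 8-fold. The promoter share fell over the same steps from 30.5% to 3.41%. The median control level fell too, from 53.3 to 3.76 scaled counts. Among gained peaks with a control mean of 10 or more reads, a restriction chosen after seeing the data, the AP-1 shares were 25.6% of 629 under 2-fold, 59.0% of 1189 at 2- to 4-fold and 84.4% of 135 above, at median control levels of 53.3, 16 and 13.4.

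The same held within promoters at lower shares: with a site, 21.1% of 540 promoter peaks were gained, and without a site 1.47% of 14731. Gained peaks within 1 kb of a protein-coding start held a site in 27.6% of cases and those farther away in 67.1% to 70.7%. Other motifs, searched by core letters on both strands, differed by fewer percentage points. In the ratio between gained and all peaks, the EGR core, rarer in gained peaks, differed as much as AP-1. The core of POU factors was in 4.50% of gained, 3.75% of closing and 3.17% of all peaks, and the homeobox core in 11.1%, 9.39% and 9.34%. CAGATG, an E-box of proneural factors such as NEUROD, was in 23.1% of gained, 19.7% of closing and 18.7% of all peaks. CAGCTG, an E-box of other basic helix-loop-helix factors, was in 14.2%, 20.0% and 17.6%. The EGR core was in 0.399%, 3.56% and 2.77%, the KLF/SP core in 1.29%, 7.61% and 6.14%, and the CTCF core in 1.83%, 7.02% and 5.90%, so these GC-rich cores were rarer in gained peaks. GC content and promoter share also differed between the sets, as given above, and their part in this was not tested. A match is a description of letters and no sign of a bound factor, and the CRE core, at 0.516%, 0.692% and 0.717%, showed no such split.

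**Figure D3:**
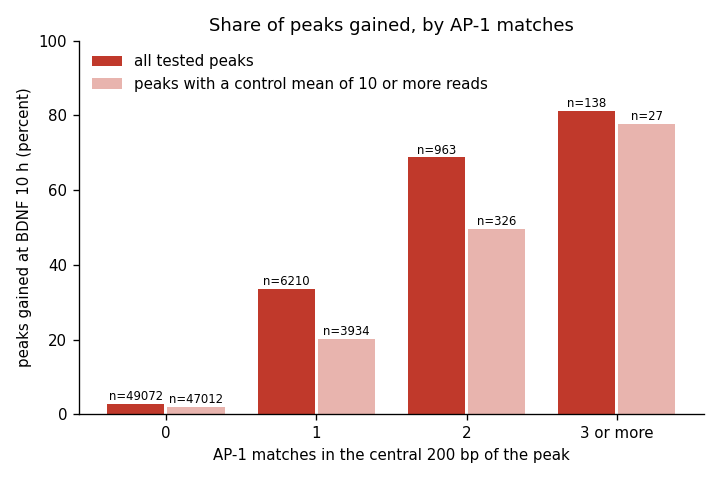
Percent of peaks gained at BDNF 10 h (axis from 0) by the number of TGANTCA matches in the central 200 bp, for all tested peaks (dark bars) and for peaks with a mean of 10 or more reads in controls (light bars), with the number of peaks above each bar. The share climbs from 2.87% to 81.2% in the dark bars and from 2.08% to 77.8% in the light bars.

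Of the 331 gained promoter peaks, 220 were at promoters of protein-coding genes. The 10 largest separated gains there included genes with little or no RNA in these cells. The peak of Pate1, a gene of sperm (chr9:35687089-35687400), held 61.4 and 50.0 scaled counts with BDNF against 1.21, 4.29 and 7.12 in controls (log2 fold change 3.62, SE 0.41, adjusted p = 1.70e-12). Pate1 RNA was listed at 0 in both BDNF libraries and at no more than 1.04 normalised counts in controls. The peak of Mpp4, a scaffold protein of photoreceptors (chr1:59162879-59163352), held 64.0 and 86.2 scaled counts with BDNF against 7.99, 11.0 and 16 in controls (log2 fold change 2.76, SE 0.30, adjusted p = 4.65e-13), and Mpp4 RNA, at 12.4 and 6.05 against 6.22 to 14.7 normalised counts, was too low to be tested. Gm11146 (log2 fold change 3.22) and Olfr957, an olfactory receptor gene (2.65), had RNA listed at 0 in all 8 libraries. The Olfr957 gain was 1.29 with an adjusted p of 0.317 when only the 8 libraries were fitted. Synj2, a phosphoinositide phosphatase of vesicle traffic, had the largest rise in RNA among those of these 10 genes whose RNA was tested. Its peak at chr17:5975557-5975831 held 37.0 and 25 scaled counts with BDNF against 2.04, 5.72 and 10.8 in controls (log2 fold change 2.40, SE 0.45, adjusted p = 2.38e-05). Synj2 RNA was 217 and 242 normalised RNA counts with BDNF against 22.0 to 37.3 in controls (log2 difference 2.89, SE 0.18, adjusted p = 1.50e-10). Sprr1a, a small proline-rich protein induced in injured neurons, had a promoter peak at chr3:92485900-92486228 that held 22.7 and 26.4 scaled counts with BDNF against 1.08, 5.23 and 11.3 in controls (log2 fold change 2.22, SE 0.51, adjusted p = 8.77e-04). Its RNA was 12.4 and 6.05 normalised counts with BDNF, 1.31 in control 1 h library A and listed at 0 in the other 5 controls, below the filter for a test.

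At Aqp4, Coq8b, Acta2 and Peg12 an opened promoter did not go with higher RNA. The peak at chr18:15408714-15408923, at a start site inside Aqp4, the water channel of astrocytes, held 28.7 and 10.7 scaled counts with BDNF against 1.05, 3.21 and 6.94 in controls (log2 fold change 2.45, SE 0.57, adjusted p = 9.89e-04). Aqp4 RNA fell, with 337 and 296 normalised RNA counts with BDNF against 396 to 714 in controls (log2 difference -0.85, SE 0.19, adjusted p = 0.00342). The Aqp4 gain rested on library A: without it the log2 fold change was 1.42 and the adjusted p 0.43. The Coq8b promoter, of a gene for coenzyme Q synthesis (chr7:27232015-27232282), held 22.7 and 41.8 scaled counts with BDNF against 2.07, 6.12 and 12.2 in controls (log2 fold change 2.35, SE 0.43, adjusted p = 1.26e-05), and Coq8b RNA fell by 0.30 on the log2 scale (adjusted p = 0.0331). The Acta2 promoter, of smooth muscle actin (chr19:34254962-34255311), held 45.5 and 38.3 scaled counts with BDNF against 1.20, 9.22 and 19.2 in controls (log2 fold change 2.21, SE 0.40, adjusted p = 1.22e-05). Acta2 RNA, at 127 and 163 normalised counts against 115 to 713, overlapped the controls and did not pass the test. Peg12, an imprinted gene, had a promoter gain of 2.62 and an RNA log2 difference of 0.08 (adjusted p = 0.708). That gain was 1.63 with an adjusted p of 0.12 when only the 8 libraries compared were fitted.

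Closing peaks fell to the floor of the table at the top of the list. Of the 1012, 68 held 3 reads or fewer in both BDNF libraries and 7 held 1 in both, so that the largest falls rest on few reads and their folds carry the SE given. The largest separated fall was at chr14:12428097-12428307, in a promoter window of the Cadps locus (CAPS, which primes dense-core vesicles), where both BDNF libraries held 1 read. That peak held 1.51 and 1.15 scaled counts with BDNF against 8.60, 19.3 and 29.2 in controls (log2 fold change -3.75, SE 0.82, adjusted p = 3.88e-04). The fall near Lmx1a, a LIM homeobox factor, at chr1:167941889-167942202 (intergenic, 252 kb downstream) came from 1.45 and 2.24 scaled counts with BDNF against 7.82, 16.4 and 32.1 in controls (log2 fold change -3.20, SE 0.76, adjusted p = 0.00137), with 1 and 2 reads in the BDNF libraries. Lmx1a was also lower in RNA, with 12.4 and 27.2 normalised RNA counts with BDNF against 35.1 to 63.3 in controls (log2 difference -1.31, SE 0.31, adjusted p = 0.00325). The peak near Lhfp (chr3:53217714-53217864, intronic, 176 kb downstream) held 1.41 and 2.19 scaled counts with BDNF against 7.31, 18.2 and 25.5 in controls (log2 fold change -3.22, SE 0.78, adjusted p = 0.0019). Falls near Pik3c3, a lipid kinase of autophagy (-3.27), Alox8, a lipoxygenase (-3.22), and Gm21750 (-3.21) lost their call without library B, with adjusted p of 0.124, 0.106 and 0.1. None of these 6 peaks held an AP-1 site in its central 200 bp.

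Of the 249 closing promoter peaks, 210 were at protein-coding genes, and the largest separated falls there were smaller and less stable. The promoter of Klf8, a Krüppel-like factor (chrX:153359551-153359937), held 6.46 and 4.76 scaled counts with BDNF against 9.66, 22.4 and 35.5 in controls (log2 fold change -1.96, SE 0.56, adjusted p = 0.0135), with an adjusted p of 0.223 without library B. Klf8 RNA was 295 and 287 normalised RNA counts with BDNF against 361 to 424 in controls (log2 difference -0.43, SE 0.09, adjusted p = 0.00119). The promoter of Rreb1, a Ras-responsive zinc finger factor (chr13:37778208-37778461), held 1.59 and 5.92 scaled counts with BDNF against 11.9, 17.1 and 26.9 in controls (log2 fold change -2.12, SE 0.61, adjusted p = 0.0145), and Rreb1 RNA fell by 0.48 (adjusted p = 0.0167). In both genes chromatin and RNA were lower, and in both the RNA libraries of BDNF lay below all controls. At Rreb1 the adjusted p was 0.304 without library A. The Syt11 peak (-2.35, adjusted p = 0.0345) and the Fcgr3 peak (-2.16, 0.0414) lost their call under TMM (adjusted p = 0.173 and 0.179) and under DESeq2 size factors. Syt11, a synaptotagmin, had 10552 and 11017 normalised RNA counts with BDNF against 9930.2 to 11196, and Fcgr3, an Fc receptor of myeloid cells, was too low in RNA to be tested. The Pnliprp1 fall (-2.02, adjusted p = 0.0104) had an adjusted p of 0.231 without library A. The Phactr3 fall (-1.79, adjusted p = 0.0649) was lost in 7 of the alternative fits. The closing list as a whole was less stable than the gained list. Without BDNF library A, 475 peaks were closing, and they included 20.3% of the 1012. Without library B, 901 were closing and included 29.6%. Gained peaks numbered 2494 without A and 2959 without B, and included 55.9% and 62.3% of the 4265.

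Peaks were assigned to the nearest protein-coding start within 100 kb, which placed 41353 tested peaks at 15180 genes, with 6.10% of them gained and 1.83% closing. Genes with the most gained peaks included Cwc22, Sgms1, Colec10, Magi2, Psd3 and Ank2 with 5 each and, first by adjusted p of those with 4, Spred2. Most are long genes with many tested peaks (27, 15, 7, 24, 16 and 31, in that order). Of the genes named here the gained share was largest at Colec10, at Spred2, where 9 peaks were tested, and at Sgms1. Spred2, a feedback inhibitor of Ras and MAP kinase signalling, had its promoter, an intron and 2 upstream regions open together. The promoter peak at chr11:19923978-19924656 held 239 and 212 scaled counts with BDNF against 127, 149.5 and 176 in controls (log2 fold change 0.57, SE 0.14, adjusted p = 0.00185). The intronic peak at chr11:19979271-19979668, 24.9 kb downstream of the nearest transcript start, held 41.7 and 35.6 scaled counts with BDNF against 1.16, 5.22 and 14.6 in controls (log2 fold change 2.73, SE 0.39, adjusted p = 1.32e-08). Control 10 h library A was the highest control of the intronic peak at 14.6, and the other 5 were between 1.16 and 6.03. The region 88.8 kb upstream at chr11:19835217-19835849 held 359 and 289 scaled counts with BDNF against 88.0, 142 and 172 in controls (log2 fold change 1.21, SE 0.13, adjusted p = 3.18e-13). The region 81.1 kb upstream at chr11:19843163-19843477 held 11.9 and 18.2 scaled counts with BDNF against 0.944, 3.83 and 6.54 in controls (log2 fold change 2.02, SE 0.57, adjusted p = 0.0109). The latter had an adjusted p of 0.428 against the 10 h controls alone, and the promoter had 0.12 without library A. The other upstream region and the intronic peak kept their calls in every alternative fit. Spred2 RNA was 1380.1 and 1228 normalised RNA counts with BDNF against 765 to 866 in controls (log2 difference 0.67, SE 0.08, adjusted p = 7.25e-07), with both BDNF libraries above all controls.

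At Magi2 and Ank2, opening peaks stood beside lower RNA. Magi2, a synaptic scaffold, had 5 gained peaks, led by chr5:19970190-19970586 (intronic, 62.4 kb downstream), which held 34.3 and 24.1 scaled counts with BDNF against 1.02, 3.39 and 8.38 in controls (log2 fold change 2.65, SE 0.45, adjusted p = 2.94e-06). Magi2 RNA was 790.1 and 676 normalised RNA counts with BDNF against 870.0 to 1079.9 in controls (log2 difference -0.36, SE 0.09, adjusted p = 0.00518). Ank2, the ankyrin-B gene of axons, had 5 gained and 1 closing peak, led by chr3:127137589-127137852, which held 45.8 and 42.3 scaled counts with BDNF against 7.32, 12.0 and 18.4 in controls (log2 fold change 1.75, SE 0.36, adjusted p = 1.25e-04). Ank2 RNA was 5726 and 5284 normalised RNA counts with BDNF against 7485 to 9382 in controls (log2 difference -0.58, SE 0.10, adjusted p = 2.02e-04). In both genes the BDNF RNA libraries lay below all 6 controls. At Cwc22, a splicing factor, the leading gain at chr2:77975287-77975992 (intergenic, 29.3 kb upstream) held 170.0 and 204 scaled counts with BDNF against 58.9, 64.1 and 67.7 in controls (log2 fold change 1.56, SE 0.16, adjusted p = 5.41e-14), and its RNA did not pass the test (-0.02, adjusted p = 0.86). Sgms1, a sphingomyelin synthase, had a leading gain of 3.02 at chr19:32308238-32308718, and Psd3, an exchange factor for Arf6, one of 2.35 at chr8:68157250-68157542 with 3 AP-1 sites. Colec10, a collectin, had 5 of 7 tested peaks gained, led by chr15:54386777-54387265 (1.87), and its RNA was listed at 0 in all 8 libraries. No gene had more than 2 closing peaks, and of those with 2 the first by adjusted p were Cadps, Atf7ip, Iqgap2 and Tox2, with 13, 6, 9 and 10 peaks tested. Cadps also had 2 gained peaks, and its RNA log2 difference was 0.16 (adjusted p = 0.105). At Atf7ip, a cofactor of histone methylation, the promoter peak at chr6:136518596-136519307 held 211 and 189.8 scaled counts with BDNF against 265, 276 and 328 in controls (log2 fold change -0.50, SE 0.12, adjusted p = 0.00204), and its call was lost without library B (adjusted p = 0.145). At Tox2, an HMG-box factor, the peak at chr2:163297156-163297639 held 6.59 and 9.76 scaled counts with BDNF against 20.4, 26.2 and 41.0 in controls (log2 fold change -1.81, SE 0.47, adjusted p = 0.00412), and its call was lost without library A (adjusted p = 0.127). RNA was lower for Atf7ip (-0.24, adjusted p = 0.0493) and Tox2 (-0.27, 0.0439). At Iqgap2, a scaffold of the actin cytoskeleton, the peak at chr13:95871975-95872329 held 3.23 and 5.95 scaled counts with BDNF against 17.6, 22.7 and 32.3 in controls (log2 fold change -2.27, SE 0.58, adjusted p = 0.00338). The call of this peak too was lost without library A (log2 fold change -1.95), and Iqgap2 RNA did not pass the test.

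**Figure D4:**
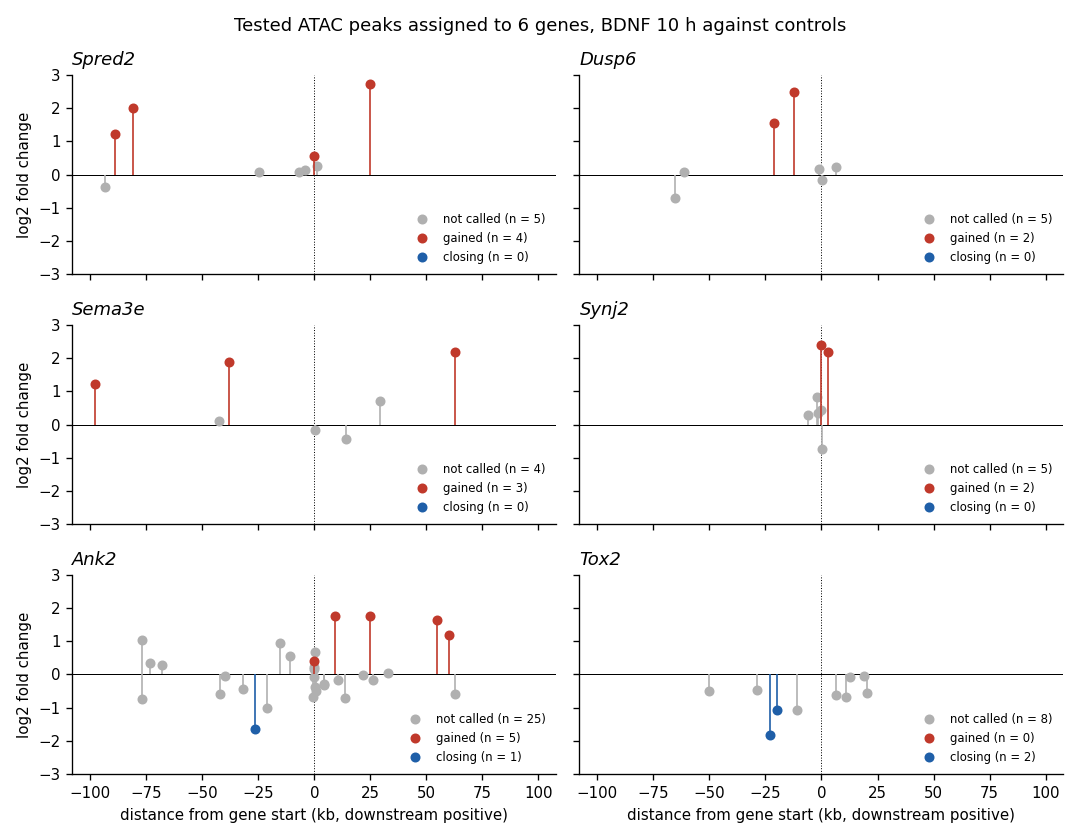
Log2 fold change of each tested peak (BDNF 10 h against controls) by distance in kb from the nearest protein-coding transcript start, for Spred2, Dusp6, Sema3e, Synj2, Ank2 and Tox2, where red points were gained, blue points closing and grey points not called. The axis label names the gene start, but such a start can lie inside the gene, as at both gained Synj2 peaks. Spred2 has 4 gained peaks spread from upstream to inside the gene, Ank2 has 5 gained and 1 closing, and both called peaks of Tox2 are closing.

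Gene lists by role were compared with the 6.10% gained and 1.83% closing of peaks assigned to any gene, and with RNA, where 3424 genes (21.1% of 16209) were higher and 3159 (19.5%) lower at 10 h of BDNF. The lists were chosen with earlier results of these data known, and their counts are descriptions. The MAP kinase feedback list, genes that the cascade switches on, that restrain it or that feed it, had 15 gained and 4 closing of 93 peaks (16.1% and 4.30%), at 9 and 4 of its genes. In RNA 15 of 23 were higher and 1 lower. The median log2 fold change of its peaks was 0.09, so most of its peaks stayed near the controls. Besides Spred2 it was led by Rasgrf2, an exchange factor for Ras, whose peak at chr13:91936208-91936409 (intronic, 51.7 kb downstream) held 44.0 and 23.5 scaled counts with BDNF against 1.01, 2.32 and 6.24 in controls (log2 fold change 3.36, SE 0.49, adjusted p = 4.51e-08). Etv5, an ETS factor downstream of the cascade, had a peak at chr16:22434546-22434781 (intronic, 1.85 kb downstream) that held 27.4 and 38.1 scaled counts with BDNF against 2.08, 6.37 and 8.46 in controls (log2 fold change 2.52, SE 0.43, adjusted p = 2.82e-06). Dusp6, the phosphatase of ERK, had one at chr10:99250820-99251084 (intergenic, 12.3 kb upstream) that held 43.1 and 30.9 scaled counts with BDNF against 1.22, 5.60 and 15.5 in controls (log2 fold change 2.48, SE 0.44, adjusted p = 6.48e-06). All 3 lay outside promoters, and in each the BDNF libraries were above all controls. Dusp6 RNA was 1528 and 1638 normalised RNA counts with BDNF against 201 to 288 in controls (log2 difference 2.83, SE 0.11, adjusted p = 1.09e-13). Etv5 RNA was 1917 and 1806 normalised RNA counts with BDNF against 626 to 681 in controls (log2 difference 1.52, SE 0.07, adjusted p = 2.36e-12). Rasgrf2 RNA was 129 and 107 normalised RNA counts with BDNF against 299 to 344 in controls (log2 difference -1.45, SE 0.11, adjusted p = 1.78e-09).

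Early transcription factors, the first genes switched on by neuronal stimulation, had 6 gained and 1 closing of 103 peaks (5.83% and 0.971%), close to the share of all genes, while in RNA 14 of 26 were higher and 1 lower. The peak at chr4:95105344-95105728, 53.3 kb upstream of Jun, a partner in AP-1, held 86.7 and 85.6 scaled counts with BDNF against 17.3, 21.7 and 29.3 in controls (log2 fold change 1.91, SE 0.25, adjusted p = 7.57e-10). The peak at chr15:38384249-38384975, 83.9 kb upstream of Klf10, a Krüppel-like repressor, held 94.1 and 109 scaled counts with BDNF against 21.3, 27.1 and 57.4 in controls (log2 fold change 1.76, SE 0.23, adjusted p = 9.48e-10). The peak at chr5:32035751-32036129, 99.9 kb upstream of Fosl2, another AP-1 partner, held 48.7 and 33.5 scaled counts with BDNF against 1.20, 5.49 and 7.76 in controls (log2 fold change 2.97, SE 0.43, adjusted p = 2.48e-08). At Klf10 control 10 h library A reached 57.4 and the other controls 21.3 to 28.4, and no control reached either BDNF library at the 3 peaks. Jun RNA was 1260.2 and 1294 normalised RNA counts with BDNF against 1096 to 1255 in controls (log2 difference 0.11, SE 0.08, adjusted p = 0.277). Klf10 RNA was 428 and 439 normalised RNA counts with BDNF against 193 to 225 in controls (log2 difference 1.01, SE 0.09, adjusted p = 4.23e-08). Fosl2 RNA was 1125 and 1002 normalised RNA counts with BDNF against 1119 to 1415 in controls (log2 difference -0.28, SE 0.15, adjusted p = 0.18). Neurotrophins and their receptors, the ligands and receptors of the pathway, had 3 gained and 0 closing of 64 peaks (4.69%), and 7 higher and 4 lower of 14 in RNA. Shc3, an adaptor of Trk receptors, had a peak at chr13:51539865-51540171 (intronic, 27.1 kb downstream) that held 42.1 and 34.6 scaled counts with BDNF against 2.07, 5.25 and 8.75 in controls (log2 fold change 2.87, SE 0.42, adjusted p = 5.77e-08). Shc3 RNA was 212 and 175 normalised RNA counts with BDNF against 115 to 151 in controls (log2 difference 0.54, SE 0.12, adjusted p = 0.00205).

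Granins and neuropeptides, secreted from dense-core vesicles, had 6 gained and 2 closing of 71 peaks (8.45% and 2.82%), and 14 higher and 2 lower of 22 in RNA. Gal, a member, had the largest RNA rise of the genes with a gained peak. Gal encodes galanin, a neuropeptide. A peak at chr19:3419338-3419652, 4.95 kb upstream of its start and with the 3 AP-1 sites shown above, held 43.7 and 27.4 scaled counts with BDNF against 1.48, 4.55 and 11.2 in controls (log2 fold change 2.70, SE 0.44, adjusted p = 8.21e-07). Gal RNA was 138 and 147 normalised RNA counts with BDNF against 0 to 1.96 in controls (log2 difference 6.25, SE 0.41, adjusted p = 2.07e-10), so that the RNA went from about the floor to well above it. Crh encodes corticotropin-releasing hormone. The peak at chr3:19758442-19758869, 63.3 kb upstream and with no AP-1 site, held 22.6 and 31.0 scaled counts with BDNF against 5.08, 7.17 and 10.2 in controls (log2 fold change 1.85, SE 0.42, adjusted p = 8.41e-04), with an adjusted p of 0.115 without library B. Crh RNA was 32.8 and 29.5 normalised RNA counts with BDNF against 0 to 3.92 in controls (log2 difference 3.52, SE 0.79, adjusted p = 0.00378). Genes outside the lists with large RNA rises and a gained peak were named after their values were seen. They include Galr1, a galanin receptor (RNA log2 difference 4.92, adjusted p = 7.13e-08), and Crhbp, the binding protein of Crh (3.41, 2.21e-10). The Crhbp peak at chr13:95450788-95451042 held 18.1 and 16.1 scaled counts with BDNF against 2.25, 5.01 and 15.1 in controls (log2 fold change 1.42, SE 0.53, adjusted p = 0.0898), and that call was lost in 8 of the alternative fits. The interferon-inducible Ifi202b had a peak at chr1:173973064-173973682 that held 159.9 and 84.4 scaled counts with BDNF against 30.0, 35.8 and 36.7 in controls (log2 fold change 1.79, SE 0.23, adjusted p = 5.30e-10), and Ifi202b RNA was 36.2 and 43.9 normalised RNA counts with BDNF against 1.04 to 3.29 in controls (log2 difference 3.79, SE 0.46, adjusted p = 1.98e-06).

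Synaptic plasticity effectors had 5 gained and 3 closing of 129 peaks (3.88% and 2.33%), under the share of all genes for gains, with 12 higher and 5 lower of 25 in RNA. Syt4, a synaptotagmin of vesicle release, had a peak at chr18:31467258-31467544 that held 56.3 and 22.6 scaled counts with BDNF against 1.02, 3.68 and 6.82 in controls (log2 fold change 3.22, SE 0.46, adjusted p = 1.69e-08). Plat, the tissue plasminogen activator that cleaves proBDNF through plasmin, opened at its promoter, where the peak at chr8:22757311-22757908 held 177 and 157 scaled counts with BDNF against 88.3, 107 and 126 in controls (log2 fold change 0.63, SE 0.16, adjusted p = 0.00297). That call was lost without library A (adjusted p = 0.132). Plat RNA was 712 and 659.9 normalised RNA counts with BDNF against 548 to 843 in controls (log2 difference -0.01, SE 0.13, adjusted p = 0.951), and Syt4 RNA was 5198 and 5544 normalised RNA counts with BDNF against 6152 to 7470.5 in controls (log2 difference -0.35, SE 0.08, adjusted p = 0.00201). Inhba had a further gained peak at chr13:15979689-15979951 (intronic, 32.0 kb upstream) that held 46.0 and 25.5 scaled counts with BDNF against 1.03, 6.44 and 15.4 in controls (log2 fold change 2.39, SE 0.46, adjusted p = 4.53e-05). Inhba RNA was 38.4 and 34.1 normalised RNA counts with BDNF against 41.5 to 58.9 in controls (log2 difference -0.42, SE 0.19, adjusted p = 0.0919), lower while both regions were open. Voltage-gated potassium channels, which set the return to rest after a spike, had 10 gained and 2 closing of 138 peaks (7.25% and 1.45%). In RNA 8 of 24 were higher and 6 lower. Kcnip4, a partner of Kv4 channels, had a peak at chr5:48564105-48564316 (intronic, 35.5 kb downstream) that held 34.7 and 28.3 scaled counts with BDNF against 1.00, 4.0 and 7.51 in controls (log2 fold change 2.80, SE 0.47, adjusted p = 2.16e-06). Kcna1, the Kv1.1 channel, had one at chr6:126653664-126653971 (intergenic, 9.0 kb upstream) that held 23.6 and 9.40 scaled counts with BDNF against 1.51, 3.39 and 6.24 in controls (log2 fold change 2.03, SE 0.55, adjusted p = 0.00792), with an adjusted p of 0.516 without library A. The RNA log2 difference was -0.76 (adjusted p = 0.00218) for Kcnip4 and 1.07 (adjusted p = 3.62e-08) for Kcna1.

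Glutamate and GABA receptors had 5 gained and 1 closing of 105 peaks (4.76% and 0.952%), and 11 higher and 6 lower of 24 in RNA. The peak in Grm8, a presynaptic metabotropic receptor (chr6:28091095-28091667), held 52.3 and 35.1 scaled counts with BDNF against 4.09, 7.87 and 17.6 in controls (log2 fold change 2.3, SE 0.38, adjusted p = 1.59e-06). The peak 41.0 kb upstream of Gabra2, a GABA receptor subunit (chr5:71136751-71137044), held 41.0 and 48.6 scaled counts with BDNF against 4.71, 10.9 and 19.3 in controls (log2 fold change 1.95, SE 0.36, adjusted p = 1.27e-05). Both lay above the controls, and the RNA of Grm8 (0.60, adjusted p = 0.00149) and Gabra2 (-0.14, adjusted p = 0.338) is given as log2 differences. Axon guidance and adhesion genes had 16 gained and 3 closing of 209 peaks (7.66% and 1.44%), at 10 and 3 genes, and 9 higher and 11 lower of 32 in RNA. The peak in Sema3a, a repulsive semaphorin (chr5:13477649-13478102), held 60.6 and 54.2 scaled counts with BDNF against 6.59, 14.8 and 27.7 in controls (log2 fold change 1.90, SE 0.32, adjusted p = 1.68e-06). The peak near Efna5, an ephrin ligand (chr17:62977660-62977857), held 44.9 and 28.5 scaled counts with BDNF against 1.48, 7.79 and 10.2 in controls (log2 fold change 2.27, SE 0.42, adjusted p = 1.75e-05). The peak in Slit2, a ligand of Robo receptors (chr5:48014307-48014633), held 32.1 and 25 scaled counts with BDNF against 4.18, 6.03 and 8.84 in controls (log2 fold change 2.16, SE 0.44, adjusted p = 1.46e-04). RNA log2 differences were 0.93 (adjusted p = 4.32e-09) for Sema3a, -0.18 (adjusted p = 0.526) for Efna5 and -0.11 (adjusted p = 0.793) for Slit2. Cortical neuron identity factors had 7 gained and 5 closing of 224 peaks (3.13% and 2.23%), and 3 higher and 13 lower of 26 in RNA, the largest share of lower genes among the lists of neuronal genes. Nfia, a nuclear factor I protein, had a peak at chr4:97950329-97950692 (intronic, 70.4 kb downstream) that held 103 and 67.8 scaled counts with BDNF against 4.71, 12.4 and 21.9 in controls (log2 fold change 2.77, SE 0.30, adjusted p = 3.18e-13). Rorb, a nuclear receptor of layer 4 neurons, had one at chr19:18984873-18985344 that held 55.5 and 38.6 scaled counts with BDNF against 4.75, 7.20 and 8.20 in controls (log2 fold change 2.76, SE 0.38, adjusted p = 7.33e-09). Bhlhe22, a helix-loop-helix factor, had one at chr3:18127143-18127487 that held 26.0 and 34.7 scaled counts with BDNF against 1.03, 4.44 and 8.84 in controls (log2 fold change 2.81, SE 0.45, adjusted p = 4.93e-07). RNA log2 differences were -0.52 (adjusted p = 3.61e-04) for Nfia, 0.34 (adjusted p = 0.0185) for Rorb and -0.19 (adjusted p = 0.174) for Bhlhe22.

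Cell type markers were used to check the culture. Summed over the 12 neuronal markers, normalised RNA counts were 77982 to 87851 in controls and 80839 and 76489 with BDNF, and RNA was higher for 5 and lower for 4 of the 12. The sum over astrocyte markers was 17272 to 22495 in controls and 16647 and 16684 with BDNF, and over progenitor and cycling markers 19573 to 24800 against 19154 and 20097. The sums were 6476 to 7002 against 6449 and 6126 for the oligodendrocyte lineage, 2582 to 3953 against 2364 and 2526 for vascular cells, and 160.0 to 249.9 against 184 and 197 for microglia. In RNA 0 of 9 astrocyte markers were higher and 4 lower, 1 higher and 4 lower of 9 for the oligodendrocyte lineage, 0 and 5 of 12 for progenitors, 0 and 2 of 6 for vascular cells and 0 and 0 of 8 for microglia. Over all genes tested, 21.1% were higher and 19.5% lower. So markers of other cells were present, and several were lower with BDNF, as were 4 of the 12 neuronal markers. Mbp, of the oligodendrocyte lineage, was higher (log2 difference 1.10, limma adjusted p = 1.96e-07). The part of other cells in the chromatin calls was not tested. Peaks assigned to the markers were 5 gained and 0 closing of 55 for astrocytes, 3 and 1 of 26 for vascular cells and 1 and 1 of 57 for progenitors. They were 0 and 1 of 31 for the oligodendrocyte lineage, 1 and 0 of 7 for microglia and 5 and 2 of 69 for neurons. Of peaks assigned to any gene, 6.10% were gained and 1.83% closing. The peak 3.31 kb downstream of a transcript start of Slc1a3, the glutamate transporter of astrocytes (chr15:8706961-8707230), held 43.5 and 36.9 scaled counts with BDNF against 1.04, 5.46 and 8.87 in controls (log2 fold change 2.99, SE 0.43, adjusted p = 2.61e-08), and Slc1a3 RNA was 7875 and 8089 normalised RNA counts with BDNF against 7785 to 10270.0 in controls (log2 difference -0.20, SE 0.09, adjusted p = 0.102). The peak 61.0 kb upstream of Flt1, a VEGF receptor of endothelium (chr5:147786876-147787141), held 32.2 and 48.7 scaled counts with BDNF against 1.28, 2.93 and 4.62 in controls (log2 fold change 3.72, SE 0.48, adjusted p = 5.49e-10). The peak near Gad2, the GABA-synthesising enzyme (chr2:22679879-22680264), held 67.8 and 41.6 scaled counts with BDNF against 14.0, 15.4 and 22.8 in controls (log2 fold change 1.65, SE 0.32, adjusted p = 4.82e-05). Flt1 RNA, at 5.65 and 4.54 normalised counts with BDNF against 2.63 to 7.21 in controls, was too low to be tested, and Gad2 RNA had a log2 difference of 0.56 (adjusted p = 2.83e-05).

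Genes with and without a gained peak nearby had about the same shares higher and lower in RNA. Of 1529 genes with at least 1 gained peak within 100 kb, 23.1% were higher and 23.9% lower, against 22.0% and 22.3% of the 10475 genes with tested but no gained peaks. Rises of at least 2-fold were 54 (3.53%) against 1.25%. Among the 75 genes with 3 or more gained peaks, 33.3% were higher, 25.3% lower and 8.00% at least 2-fold higher. Genes with a closing peak were more often lower: 31.5% of 606 were lower and 21.0% higher, against 22.0% and 22.2% of genes without one. Of the 20 genes with 2 or more closing peaks, 12 were lower and 1 higher. Genes with a called peak have more tested peaks (median 5 with a gained peak and 12 with 3 or more, against 2 without). RNA levels in controls were close with and without a gained peak (median 370.0 against 407 normalised counts). Within 50 kb the shares were 22.4% higher and 23.7% lower for gained peaks, and 31.5% lower for closing peaks. Of the 32 genes with 3 or more gained peaks within 50 kb, 28.1% were higher, 28.1% lower and 3.13% at least 2-fold higher. The larger share of higher genes at 3 or more gained peaks was thus seen within 100 kb only. Genes with a closing peak and the largest RNA falls, named after their values were seen, were Mkx, a homeobox factor of tendon (RNA log2 difference -1.99, adjusted p = 7.39e-06), Tmtc1, a mannosyltransferase of the ER (-1.36, adjusted p = 1.86e-09), Filip1, a filamin-binding protein (-1.32, adjusted p = 2.54e-05), Ikzf2, an Ikaros family factor (-1.22, adjusted p = 2.89e-07), Lrrc75b (-1.21, adjusted p = 5.89e-09) and Ntsr1, the neurotensin receptor (-1.12, adjusted p = 1.51e-08). Mkx and Filip1 also had 1 gained peak each. The Ntsr1 promoter peak at chr2:180499676-180500102 held 13.1 and 7.29 scaled counts with BDNF against 24.7, 31.4 and 43.8 in controls (log2 fold change -1.74, SE 0.44, adjusted p = 0.00359), and Ntsr1 RNA was 296 and 275 against 553 to 680.4 normalised counts. The Tmtc1 peak at chr6:148406840-148407351 held 20.1 and 22.1 scaled counts with BDNF against 18.9, 46.5 and 69.6 in controls (log2 fold change -1.12, SE 0.36, adjusted p = 0.0352), so that the BDNF libraries overlapped the lowest control. Without library B the adjusted p was 0.212 for the Ntsr1 peak and 0.194 for the Tmtc1 peak, and the Ikzf2 (-1.17) and Lrrc75b (-1.26) peaks lost their calls in 8 alternative fits each.

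**Figure D5:**
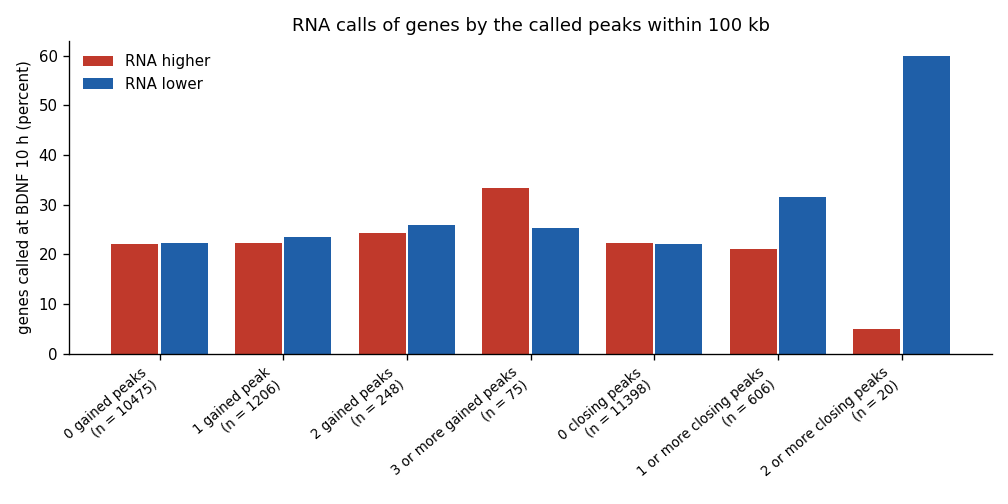
Percent of genes called higher (red) or lower (blue) in RNA at BDNF 10 h (axis from 0), by the number of gained or closing peaks assigned within 100 kb, with the number of genes under each pair of bars. The pairs are close to each other except at 3 or more gained peaks (33.3% higher and 25.3% lower of 75 genes), at 1 or more closing peaks (21.0% higher, 31.5% lower) and at 2 or more closing peaks, where 12 of 20 genes were lower.

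The gained peaks were about as high at 1 h of BDNF as at 10 h, and few of the closing peaks differed directly between the times. Compared directly with BDNF at 1 h, 157 peaks (0.278%) were higher at 10 h and 341 (0.605%) lower, and of the 4265 gained peaks 26 were higher and 79 lower. The median gained peak had a log2 fold change against controls of 1.85 at 1 h, 1.66 at 6 h and 1.65 at 10 h. The median closing peak had -0.40, -0.37 and -1.38, and 44 of the 1012 were lower than at 1 h and 0 higher. These sets share their controls and the 10 h libraries chose the members, which favours low 10 h values among closing peaks. The medians and the direction of these direct calls are therefore side-by-side descriptions. AP-1 sites were in 64 of the 79 gained peaks lower than at 1 h (81.0%) and in 3 of the 26 higher than at 1 h (11.5%). The late gains, picked after their values were seen as the 4 largest separated ones, were near Tmem17, Arhgef26, Ythdf3 and Bnc2. The peak at chr3:62282237-62282741, 55.9 kb upstream of Arhgef26, a guanine nucleotide exchange factor, held 68.4 and 54.0 scaled counts at 10 h and 7.29 and 14.7 at 1 h, with 5.89, 16.1 and 26.3 in controls (log2 difference 2.42, SE 0.46, adjusted p = 0.00185). The peak at chr11:22421694-22421945, 90.3 kb upstream of Tmem17, a protein of the cilium, held 31.6 and 20.5 at 10 h and 2.98 and 5.73 at 1 h (log2 difference 2.50, SE 0.65, adjusted p = 0.048). The Tmem17 gain over controls had an adjusted p of 0.49 without library A, while the Arhgef26 gain over controls kept its call in every alternative fit. Gains that had receded by 10 h include the intronic Spred2 region, which held 164 and 169.9 at 1 h and 41.7 and 35.6 at 10 h (log2 difference -2.12, SE 0.35, adjusted p = 1.77e-04), and the Jun peak, with 176 and 200.3 and 86.7 and 85.6 (log2 difference -1.13, SE 0.26, adjusted p = 0.0166). Both were still above all controls at 10 h. Among closing peaks, the Tox2 peak held 55.2 and 18.4 at 1 h and 6.59 and 9.76 at 10 h (log2 difference -2.09, SE 0.51, adjusted p = 0.0293). Without BDNF 1 h library A the difference was -1.14 (adjusted p = 0.654). The intronic peak at chr18:61173293-61173503, near Hmgxb3, held 21.3 and 19.9 and 1.58 and 2.36 (log2 difference -3.27, SE 0.77, adjusted p = 0.0202), and it stood at 1 and 2 reads at 10 h. These direct calls were fragile. Of the 16 named peaks called against BDNF 1 h, 2 and 5 kept the call without BDNF 10 h library A or B and 1 and 4 without BDNF 1 h library A or B, and all 16 kept it under TMM, under DESeq2 size factors and with no filter.

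KCl, added at 55 mM to depolarise the cells, gave lower values than BDNF at part of the gained peaks, a set that the BDNF libraries chose. Against KCl at 10 h, 675 peaks (1.2%) were higher with BDNF and 462 (0.819%) lower. Of the 4265 gained peaks, 456 were higher with BDNF and 2 lower, and of the 1012 closing peaks 163 were lower with BDNF and 0 higher. The median gained peak had a log2 fold change against controls of 0.96 with KCl, and AP-1 sites were in 254 of the 456 (55.7%). The Farp1 peak held 34.0 and 33.8 scaled counts with BDNF and 1.98 and 1.89 with KCl (log2 difference 4.05, SE 0.71, adjusted p = 2.85e-04). The Inhba peak with the largest gain held 67.2 and 65.6 and 12.6 and 9.72 (log2 difference 2.56, SE 0.44, adjusted p = 2.01e-04). The Iglon5 peak held 82.3 and 64.7 and 16.9 and 11.7 (log2 difference 2.35, SE 0.43, adjusted p = 5.24e-04). The Farp1 region held 2 reads in each KCl library. With KCl it lay within the range of the controls, and the Iglon5 region lay between the controls and BDNF. The upstream Spred2 region held 359 and 289 with BDNF and 205 and 169 with KCl (log2 difference 0.79, SE 0.16, adjusted p = 0.00332), and the Spred2 promoter 239 and 212 and 149 and 145 (log2 difference 0.61, SE 0.17, adjusted p = 0.0505). The largest difference among the separated gained peaks was near Olfm4 at chr14:80249976-80250179 (intergenic, 249.8 kb downstream), with 37.1 and 28.4 against 0.973 and 0.943 (log2 difference 4.93, SE 0.83, adjusted p = 1.47e-04), where the KCl libraries also lay under the controls (6.40, 8.57 and 16). Both KCl libraries held 1 read there, so the size of the difference rests on counts at the floor, and the peak was chosen after its values were seen. The gain of the Olfm4 peak over controls (log2 fold change 1.67) lost its call against the 10 h controls alone (1.35, adjusted p = 0.233). It also lost it without BDNF library A (1.35). In the other direction, the Tox2 peak held 6.59 and 9.76 with BDNF and 41.2 and 39.0 with KCl (log2 difference -2.25, SE 0.51, adjusted p = 0.0093), and the Ntsr1 promoter 13.1 and 7.29 and 31.5 and 42.8 (log2 difference -1.90, SE 0.50, adjusted p = 0.0301). Of the 31 named peaks called against KCl 10 h, 18 and 7 kept the call without KCl library A or B and 10 and 20 without BDNF library A or B.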

How the data were processed

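ATAC-seq and RNA-seq libraries of primary cortical neurons were grouped by the labels. For ATAC, the authors used bowtie2 for alignment (mm10), MACS2 for peaks of each sample, and DiffBind for a consensus of peaks found in 2 or more samples and for its read counts. The deposited ATAC values are raw counts per peak (lowest value 1), although the table is named as normalised. For RNA, the deposited signal is the gene read count divided by the authors' DESeq2 size factor for each sample. Reads were aligned by TopHat2 with GENCODE M16, and the counter is not given in the sources used here. Every RNA value was a whole multiple of its column's step within 0.01. The authors' tables of their own comparisons, with fold changes and p-values, were not used.

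Peaks with a mean of at least 10 reads over the 18 ATAC libraries were tested with edgeR 4.0.16 (glmQLFit robust, glmQLFTest, LOESS offsets, 7 levels with the 6 controls as 1, 11 residual degrees of freedom), and genes with limma 3.58.1 (trend, robust) on log2(value + 1), which understates changes of low genes. Both tests were two-sided and called at a Benjamini-Hochberg adjusted p below 0.1. The SE of an edgeR fold change is its size over the square root of F. Both were tested on simulated data. Replicate libraries differed beyond sampling noise (chi-square over degrees of freedom 2.06 to 2.58), so each counted as 1 sample.

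Peaks were annotated with GENCODE M21 on GRCm38, a later release than the authors'. Motifs were searched on both strands of the central 200 bp. Depth was 2.02 to 4.24 M reads in peaks for the 8 libraries, so low peaks carry counting error.

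Named peaks were the 10 largest gains and 6 largest falls, among called peaks with both BDNF libraries outside the range of all 6 controls, the same numbers within protein-coding promoters, the 8 genes with most gained and 4 with most closing peaks assigned within 100 kb, and up to 4 genes of each list by smallest adjusted p. Others are said to be chosen after their values were seen, and some genes that the rule names are not reported here. The comparison, members and gene lists (284 genes in 15 lists) were chosen with earlier results of these data known. Alternatives were other scalings, tests, filters, controls and left-out libraries, some of them added after seeing the data.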

Additional observations from a re-analysis of the deposited data

Results flagged for a closer look

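In 13 of 170 groups of 6 control values (7.65%), the extreme library stood apart by Dixon's gap ratio, against a critical value of 0.625. Chance alone gives about 1 in 20 such groups. In scaled ATAC counts these were the peaks of Edem1 (highest in control 10 h library A, 9.15 against 0.902 to 2.11 in the others, ratio 0.854), Syt11 (highest in control 10 h library A, 22.8 against 7.43 to 11.9 in the others, ratio 0.708), Spred2 (highest in control 10 h library A, 14.6 against 1.16 to 6.03 in the others, ratio 0.637) and Klf10 (highest in control 10 h library A, 57.4 against 21.3 to 28.4 in the others, ratio 0.804). These 4 involved the control library that also stood apart in the principal component analysis, and all 4 peaks kept their call without it. The other peaks were those of Peg12 (highest in control 1 h library A, 8.49 against 1.01 to 3.37 in the others, ratio 0.684) and Atf7ip (highest in control 10 h library B, 328 against 265 to 287 in the others, ratio 0.658). In normalised RNA counts they were Asb7 (highest in control 6 h library A, 405 against 374 to 385 in the others, ratio 0.652), Sprr1a (highest in control 1 h library A, 1.31 against 0 in the others, ratio 1.0), Magi2 (highest in control 10 h library B, 1079.9 against 870.0 to 944 in the others, ratio 0.649), Klf10 (lowest in control 10 h library A, 193 against 214 to 225 in the others, ratio 0.651), Dusp6 (highest in control 6 h library B, 288 against 201 to 224 in the others, ratio 0.74), Mkx (lowest in control 1 h library B, 43.9 against 59.7 to 66.3 in the others, ratio 0.706) and Filip1 (highest in control 6 h library A, 55.8 against 41.7 to 46.3 in the others, ratio 0.673).

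Named peaks whose effect differed directly between stimulations (edgeR contrasts within the same model, log2 differences) were 16 against BDNF 1 h and 31 against KCl 10 h. Higher at 10 h than at 1 h of BDNF were the peaks near Tmem17 2.50 (adjusted p = 0.048), Arhgef26 2.42 (adjusted p = 0.00185), Ythdf3 1.95 (adjusted p = 0.0533) and Bnc2 1.82 (adjusted p = 0.0576). Lower at 10 h were those near Cadps -3.43 (adjusted p = 0.0505), Hmgxb3 -3.27 (adjusted p = 0.0202), Gm5426 -3.21 (adjusted p = 0.0101), Rreb1 -2.65 (adjusted p = 0.0307), Spred2 (24.9 kb downstream) -2.12 (adjusted p = 1.77e-04), Tox2 -2.09 (adjusted p = 0.0293), Magi2 -1.59 (adjusted p = 0.0523), Jun -1.13 (adjusted p = 0.0166), Klf10 -0.93 (adjusted p = 0.0523), Cwc22 -0.62 (adjusted p = 0.0859), Atf7ip -0.53 (adjusted p = 0.0552) and Spred2 (88.8 kb upstream) -0.53 (adjusted p = 0.0792). Some of these peaks were named for that difference, and for those the values are descriptions.

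Higher with BDNF than with KCl at 10 h were the peaks near Olfm4 4.93 (adjusted p = 1.47e-04), Farp1 4.05 (adjusted p = 2.85e-04), Cdh6 3.86 (adjusted p = 0.0017), Dad1 3.70 (adjusted p = 0.00805), Tmem17 3.13 (adjusted p = 0.013), Inhba (234 kb upstream) 2.56 (adjusted p = 2.01e-04), Inhba (32.0 kb upstream) 2.47 (adjusted p = 0.0192), Iglon5 2.35 (adjusted p = 5.24e-04), Sprr1a 2.19 (adjusted p = 0.0736), Shc3 2.16 (adjusted p = 0.0171), Slc1a3 2.15 (adjusted p = 0.0185) and Synj2 2.12 (adjusted p = 0.0369). Smaller differences of the same direction were found near Sgms1 2.1 (adjusted p = 0.0235), Mpp4 1.90 (adjusted p = 0.00158), Dusp6 1.89 (adjusted p = 0.0578), Arhgef26 1.88 (adjusted p = 0.0157), Crh 1.76 (adjusted p = 0.0826), Agbl4 1.59 (adjusted p = 0.0686), Acta2 1.58 (adjusted p = 0.0918), Pate1 1.55 (adjusted p = 0.0655), Nfia 1.24 (adjusted p = 0.0491), Klf10 1.19 (adjusted p = 0.0148), Spred2 (88.8 kb upstream) 0.79 (adjusted p = 0.00332), Cwc22 0.73 (adjusted p = 0.0384) and Spred2 (promoter) 0.61 (adjusted p = 0.0505). Lower with BDNF than with KCl were those near Hmgxb3 -3.20 (adjusted p = 0.0179), Iqgap2 -2.90 (adjusted p = 0.00458), Gm5426 -2.60 (adjusted p = 0.0525), Tox2 -2.25 (adjusted p = 0.0093), Ntsr1 -1.90 (adjusted p = 0.0301) and Ikzf2 -1.78 (adjusted p = 0.0359). All 6 peaks lower with BDNF than with KCl were closing peaks. Named peaks were taken from called peaks, and only 2 of the 4265 gained peaks were lower than with KCl, so the choice favoured that outcome. Of all 462 peaks lower with BDNF than with KCl, 297 were not called against controls. Without 1 of the libraries, 1 to 5 of the 16 differences from BDNF 1 h and 7 to 20 of the 31 from KCl 10 h still passed.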

How the results depend on the processing

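Of the 88 peaks whose values are given, all 88 kept direction and call with no filter on low counts and with limma, 82 with TMM, 84 with DESeq2 size factors, 84 with DESeq2, 72 against the 10 h controls alone, 78 with only the 8 libraries fitted, 69 without BDNF library A, 70 without B and 85 to 88 without each control.

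Gained peaks (main 4265) numbered 2302 against the 10 h controls alone, 2723 with only the 8 libraries, 2530 at an adjusted p below 0.01, 1953 with a control mean of at least 10 reads (added after seeing the data) and 2494 to 4465 with 1 library left out. Closing peaks (main 1012) numbered 1658 with DESeq2 size factors, 508 against the 10 h controls, 1973 with limma, 119 below 0.01 and 475 to 1073 with 1 library left out. Gained peaks were 80.8% of the calls, and 68.3% with limma, 95.5% below 0.01 and 66.1% with the control filter.

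Except for the whole-peak search and the wider promoter window, the shares below were recomputed after seeing the data. AP-1 sites were in 78.3% of gained peaks over whole peaks, 70.6% against the 10 h controls, 63.0% with 8 libraries, 68.5% with DESeq2, 74.6% below 0.01, 50.0% with the control filter and 65.8% to 73.2% with 1 library left out. For closing peaks the AP-1 share was 4.94% over whole peaks, 4.26% with 8 libraries, 0% below 0.01 and 1.66% to 3.58% with 1 library left out. The promoter share of gained peaks was 10.4% with a window of 2000 bp before to 500 bp after the start, 5.30% with TMM, 4.77% with size factors, 5.95% against the 10 h controls, 6.83% with DESeq2, 4.39% below 0.01, 12.7% with the control filter and 5.61% to 8.72% with 1 library left out. The promoter share of closing peaks was 50.2% with TMM, 55.9% with size factors, 20.4% with 8 libraries, 20.2% below 0.01 and 22.1% to 27.2% with 1 library left out. Genes with a closing peak were lower in RNA in 26.7% of cases with size factors and 37.0% below 0.01.

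RNA calls were 1787 higher and 1414 lower below 0.01, and 1948 to 3526 higher and 1694 to 3362 lower with 1 library left out. With the letters as a replicate block they were 3495 and 3326, but correlations by letter ran from -0.32 to 0.42 and were not above 0.1 in every pair, so the letters were not taken to pair the samples. Peaks differing from BDNF 1 h (498) numbered 42 below 0.01 and 42 to 266 with 1 library left out, and those differing from KCl 10 h (1137) numbered 134 and 151 to 692. No paired analysis was possible because the ATAC columns carry no replicate number. The cause of these changes was not tested. Reads of 2.02 M in BDNF library A limit what can be called among weak peaks.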
